A study of Arabidopsis thaliana with 23 samples.

Results

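MIR163 (AT1G66725) is a microRNA (miRNA) gene of *Arabidopsis thaliana* on chromosome 1, plus strand, positions 24884066 to 24884396 (TAIR10), whose mature product is 24 nt long. Small RNA reads had been counted in 100-bp windows of the genome, and each read was assigned by its 5′ end. The gene was followed through the windows that overlap its annotated hairpin, which are 4 of the 731896 windows with reads of 21 to 24 nt in the series. It is 1 of 326 annotated miRNA genes, and the other 325 served for comparison.

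The 23 libraries were made from total RNA of inflorescences of ecotype Col-0 plants, grown at 23 °C with 16 h of light and 8 h of dark, and fall into 8 groups in 2 sequencing batches, A and B. *nrpd1-3* (batch A, n = 2) disrupts *NRPD1*, the largest subunit of RNA polymerase IV (Pol IV). *zmp-2* (batches A and B, n = 3 each) disrupts *ZMP*, which encodes a Pol IV-interacting protein. In *zmp-2 ZMP-YFP* (batch A, n = 3) the mutant carries a YFP-tagged *ZMP* expressed from the *ZMP* promoter. *zmp-2 nrpd1-3* (batch B, n = 3) lacks both ZMP and Pol IV, and *zmp-2 shh1-1* (batch B, n = 3) lacks ZMP and SHH1, a chromatin reader that recruits Pol IV. WT plants (batches A and B, n = 3 each) carry none of these alleles. The alleles are insertion mutants present in the whole plant, and every group holds the mixed cell types of the inflorescence, so fewer cells of a type and less RNA per cell cannot be told apart.

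Most 24-nt small RNAs of *Arabidopsis* are small interfering RNAs (siRNAs). Pol IV transcribes their precursors, RDR2 makes the RNA double stranded, and the Dicer-like enzyme DCL3 cuts it to 24 nt. A miRNA gene is instead transcribed by RNA polymerase II (Pol II), and DCL1 cuts a short duplex out of a hairpin transcript, usually as 21-nt strands. miR163 is the best-known exception in length: DCL1 releases a 24-nt miRNA from a duplex whose strands differ in length. It guides cleavage of transcripts of the SABATH methyltransferases, enzymes that methylate small plant metabolites, and its hairpin is thought to have arisen from a duplicated copy of such a gene. In a plant without Pol IV the siRNAs of that length are mostly missing, and a DCL1 product does not need Pol IV.

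The mature miRNA lies at chr1:24884359-24884382 on the 3′ arm of the hairpin. It is shown because its sequence carries both its length and its targeting, with the seed (bases 2 to 8) in capitals.
miR163 mature: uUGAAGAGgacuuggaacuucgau
In the minimum free energy fold predicted for the 331-nt hairpin, 21 of its 24 bases were paired. The pairing partner on the 5′ arm (chr1:24884080-24884100) was only 21 nt long. The miRNA is shown again with its paired bases in capitals, above the stretch that lies opposite it, in which every base was paired.
miR163 pairing: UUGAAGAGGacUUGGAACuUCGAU
5′ arm stretch: AUCGAGUUCCAACCUCUUCAA
The mature sequence occurs once in the genome. Of the 308 24-mers of the hairpin, 302 occur once and none more than 2 times, so few 24-nt reads of this gene could have been placed elsewhere. Of its 311 21-mers, 293 occur once and none more than 3 times, so the placement of 21-nt reads is less certain.

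The complementary sites in 5 SABATH genes all lie in coding sequence. They are shown because they are the known targets, written 5′ to 3′ on the mRNA strand. Capitals mark bases complementary to the miRNA in an alignment without gaps.
AT1G66690: catcgAGTTCCAAGTCCTCTTCAA
AT1G66700 (*PXMT1*): catcgAGTTCCAAGTCCTCTTCAA
AT1G66720: catcgAGTTCCAgGTCCTCTTCAA
AT3G44860 (*FAMT*): AatcgAGTTCCAAGTttTCTTCAA
AT3G44870: tatcgAGTTCCAAGTttTCTTCAA
Between 17 and 19 of the 24 bases were complementary in this ungapped alignment, with 2 to 4 further G:U pairs. The lower-case run near the 5′ end of each site also opens the 5′ arm stretch, which was paired with the miRNA around an unpaired base. An alignment with a gap could therefore pair more bases there, and it was not scored. AT1G66690, AT1G66700 and AT1G66720 lie on chromosome 1 before MIR163, and AT1G66720 is its neighbour on that side. AT3G44860 and AT3G44870 lie side by side on chromosome 3.

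Nearly all reads of the gene lay in the window that holds the 5′ end of the mature miRNA. Over the 23 libraries this window (chr1:24884301-24884400) had 262431 reads of 21 to 24 nt, 99.4% of the gene's total. The window of the 5′ arm (chr1:24884001-24884100) had 1382 reads, and the windows of the loop between them had 112 and 36. The next window on either side of the gene never held more than 1 read of a size in a library. The reads of this region were thus almost confined to the windows that overlap the hairpin.

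The arms differed in read size. In the mature window 78.6% of the reads were 24 nt long, 10.6% were 21 nt, 8.47% were 22 nt and 2.35% were 23 nt. In the 5′ arm window 87.0% of the reads were 21 nt long, 10.9% were 22 nt and 1.45% were 24 nt. No library had more than 4 reads of 24 nt in the 5′ arm window, while its 21-nt reads numbered from 20 to 93. The 21-nt share of that window was at least 69.7% in every library, and at least 80.4% in WT (B). These lengths are those of the 24-nt miRNA and of the 21-nt stretch opposite it. Read positions within a window were not analysed here, so shorter reads of the mature window could start at the same base as the miRNA or at another.

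**Figure D1:**
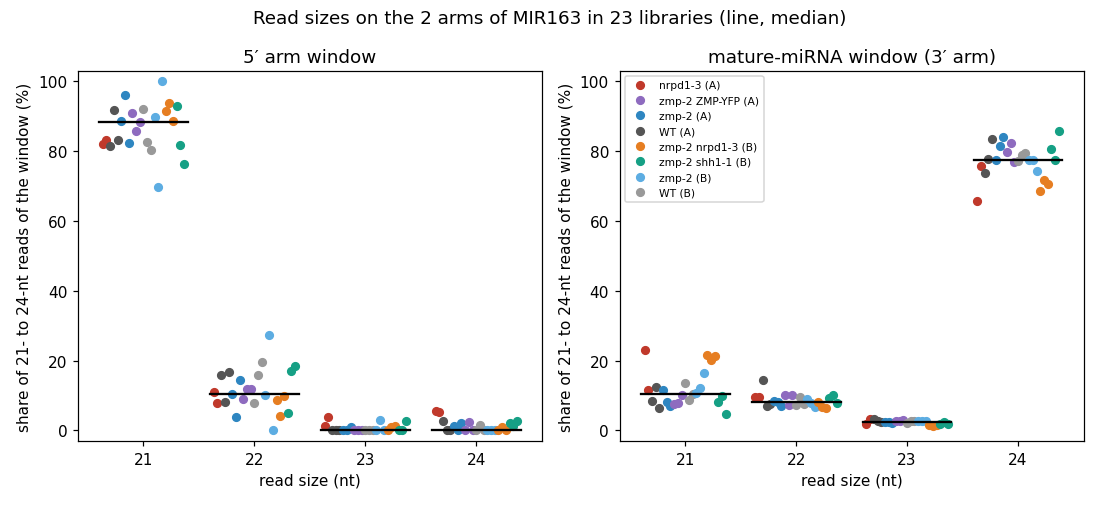
Share of each read size among the 21- to 24-nt reads of the 5′ arm window (left) and of the window that holds the 5′ end of the mature miRNA (right), as percent on the y axis and size in nt on the x axis. Each point is 1 of 23 libraries and each line is the median. The 5′ arm is mostly 21 nt, at 87.0% of all its reads, and the mature window mostly 24 nt, at 78.6%.

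The first question was whether the 24-nt product persists without Pol IV. It did. MIR163 had 10592 and 8324 reads of 24 nt in the *nrpd1-3* libraries, against 6231, 7016 and 8291 in WT (A). It had 2198, 2959 and 2974 in *zmp-2 nrpd1-3*, against 7550, 9148 and 5259 in *zmp-2* (B) and 9689, 7224 and 8409 in WT (B). These are raw counts of libraries of unequal depth. The 24-nt reads of the whole library numbered 239798 and 145497 in *nrpd1-3*, against 2.58 to 3.28 M (M, 1000000 reads) in WT (A), and from 0.0696 to 0.0793 M in *zmp-2 nrpd1-3*, against 1.04 to 1.83 M in *zmp-2* (B) and 1.73 to 2.73 M in WT (B). MIR163 therefore made up a far larger part of the 24-nt reads in both Pol IV mutants.

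MIR163 held 4.42% and 5.72% of all 24-nt reads in the *nrpd1-3* libraries, against 0.19%, 0.271% and 0.318% in WT (A). The log2 difference was 4.31 and the groups did not overlap (p = 0.2 in an exact two-sided permutation test, the lowest value that 2 libraries against 3 can give). In *zmp-2 nrpd1-3* it held 3.16%, 4.03% and 3.75%, against 0.412%, 0.533% and 0.506% in *zmp-2* (B) and 0.356%, 0.335% and 0.486% in WT (B). The log2 difference was 2.92 against *zmp-2* (B) and 3.23 against WT (B), again without overlap (exact permutation test, p = 0.1 each, the lowest value with 3 against 3). With the Benjamini-Hochberg adjustment over the 9 comparisons of this measure the p was 0.257 in *nrpd1-3* and 0.18 in both others, so no comparison of this kind could pass 0.05.

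**Figure D2:**
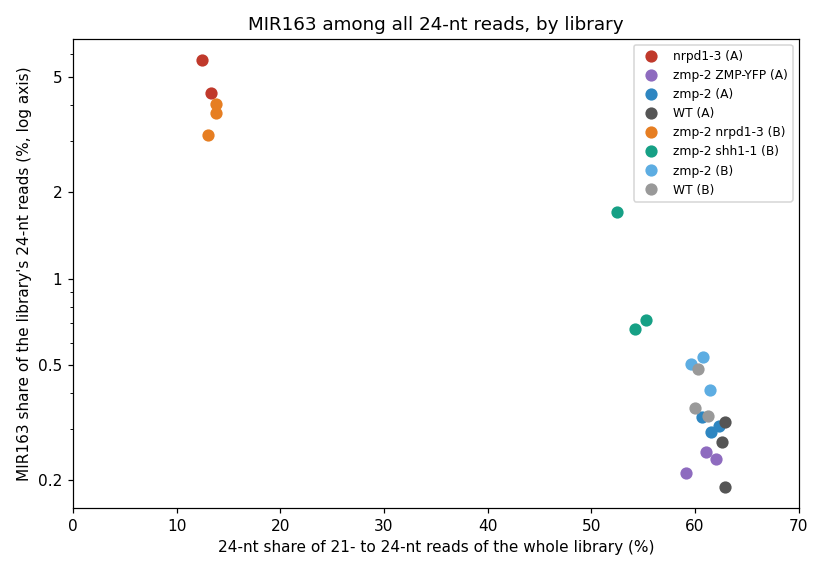
MIR163 share of all 24-nt reads (y axis, percent, log axis) against the 24-nt share of the 21- to 24-nt reads of the whole library (x axis, percent), 1 point per library. The *nrpd1-3* and *zmp-2 nrpd1-3* libraries lie at the upper left, where MIR163 holds 3.16% to 5.72% of the 24-nt reads. The *zmp-2 shh1-1* libraries lie between them and the other groups.

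The read sizes of the gene and of the library moved apart in the Pol IV mutants. At MIR163 the 24-nt share of the 21- to 24-nt reads was 65.2% and 75.1% in *nrpd1-3*, against 73.5%, 77.5% and 83.1% in WT (A). The groups overlapped (difference -7.9 percentage points, exact permutation p = 0.4). In the rest of the library the share was 12.3% ± 0.661 (SD, n = 2) in *nrpd1-3* and 62.7% ± 0.182 (SD, n = 3) in WT (A). In *zmp-2 nrpd1-3* the MIR163 share was 67.4%, 70.2% and 69.5%, against 77.2%, 77.1% and 73.9% in *zmp-2* (B) and 76.5%, 78.4% and 79.0% in WT (B). Here the groups did not overlap, with differences of -7.07 and -8.97 percentage points (exact permutation test, p = 0.1 each, adjusted p = 0.45). The rest of the library changed by -47.4 and -47.3 points in the same comparisons. Counted among 23- and 24-nt reads alone, the MIR163 share was higher in *zmp-2 nrpd1-3* by 1.17 points against *zmp-2* (B) and by 0.82 points against WT (B), so the shift lay between 24 nt and the shorter sizes.

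The reads that took up the difference were 21 nt long. After the values had been seen, the 21-nt share at MIR163 was compared too. It was 22.9%, 21.9% and 22.4% in *zmp-2 nrpd1-3*, against 11.1%, 12.3% and 16.7% in *zmp-2* (B) and 14.2%, 9.26% and 10.8% in WT (B), without overlap (exact permutation test, p = 0.1 each). In *nrpd1-3* it was 23.3% and 12.2%, against 8.86%, 12.8% and 6.71% in WT (A), so 1 library stood above all WT (A) libraries and the other lay within their range. The other annotated miRNA genes together also had more 21-nt reads among their 21- to 24-nt reads, at 91.2% ± 0.31 in *zmp-2 nrpd1-3*, against 78.7% ± 1.15 in *zmp-2* (B) and 81.4% ± 1.08 in WT (B) (SD, n = 3 each). Whether this shift of all miRNA genes has a part in that of MIR163 was not tested.

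**Figure D3:**
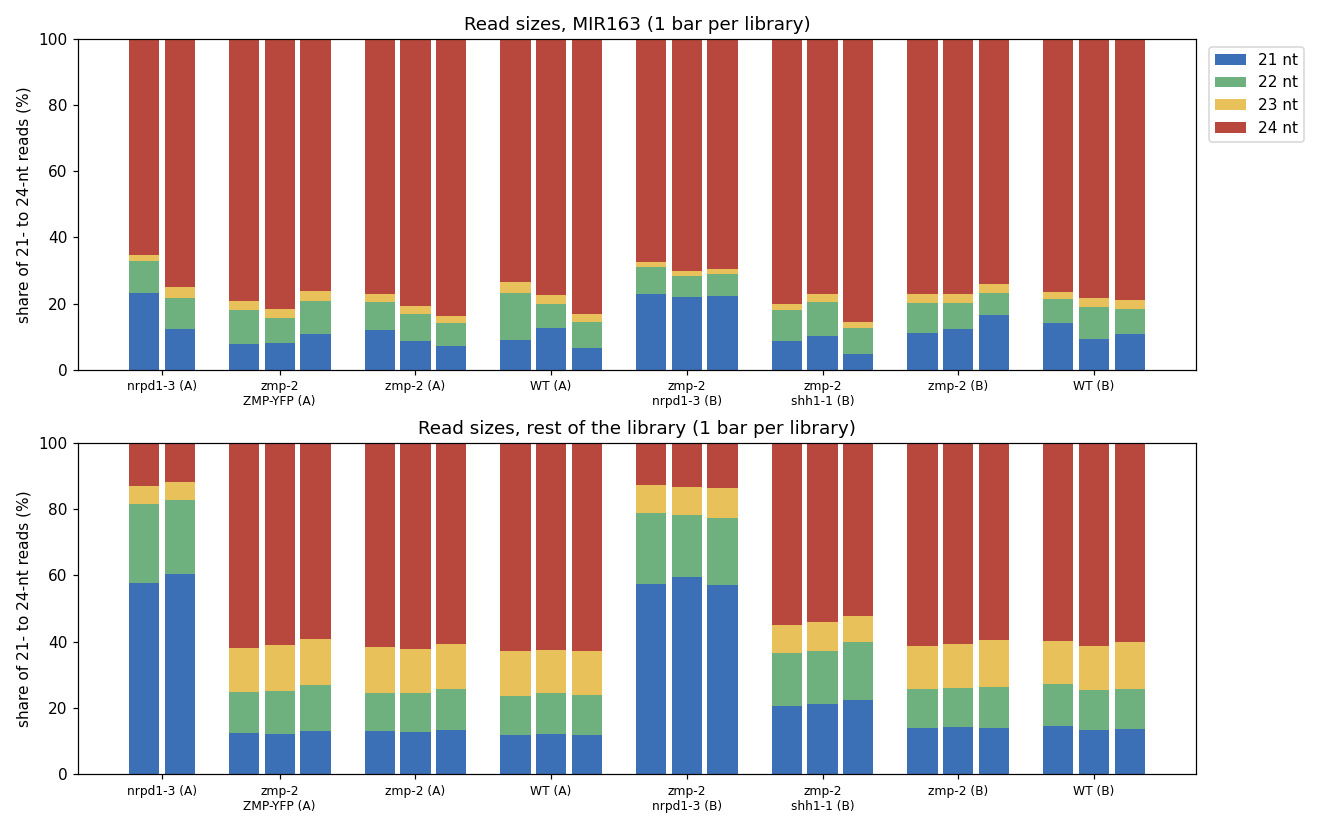
Share of 21-, 22-, 23- and 24-nt reads (stacked bars, percent of 21- to 24-nt reads) at MIR163 (top) and in the rest of the library (bottom), 1 bar per library, by group. In *nrpd1-3* and *zmp-2 nrpd1-3* the 24-nt part shrinks to 12.3% and 13.2% in the rest of the library, on average, while at MIR163 it stays at 65.2% or more in each of these libraries.

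The 5′ arm strand showed the same libraries apart. Its 21-nt reads numbered 2.41, 3.04 and 2.12 per 100 24-nt reads of the mature window in *zmp-2 nrpd1-3*, against 0.464, 0.251 and 0.456 in *zmp-2* (B) and 0.96, 0.72 and 0.535 in WT (B). The groups did not overlap (log2 differences of 2.73 and 1.80, exact permutation test, p = 0.1 each). In *nrpd1-3* the ratio was 0.567 and 0.769, against 0.498, 0.485 and 0.302 in WT (A), also without overlap. This ratio was chosen after the values were seen. It rests on 53 to 90 reads of the 5′ arm per *zmp-2 nrpd1-3* library and on 23 to 35 per *zmp-2* (B) library.

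The level of MIR163 in the Pol IV mutants depended on what it was measured against. The study scaled counts as reads per 1000000 reads of 45S rRNA (RPMR). On that scale the 24-nt level was 9896 and 11918 RPMR in *nrpd1-3*, against 23038, 28405 and 32714 RPMR in WT (A). It was 351, 490 and 385 RPMR in *zmp-2 nrpd1-3*, against 16423, 19446 and 13682 RPMR in *zmp-2* (B) and 13354, 18151 and 19190 RPMR in WT (B). Every library of the mutants lay below every library it was compared with. The rRNA reads themselves differed between the groups, at 5.3 ± 0.237 per mapped read in *zmp-2 nrpd1-3*, against 0.142 ± 0.022 in *zmp-2* (B) and 0.12 ± 0.0203 in WT (B) (SD, n = 3 each), and at 0.302 ± 0.0156 (SD, n = 2) in *nrpd1-3*, against 0.0488 ± 0.00494 (SD, n = 3) in WT (A).

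Measured per 1000000 mapped reads (RPM), a level whose tests were added after the values had been seen, the same 24-nt counts gave 2878 and 3728 RPM in *nrpd1-3*, against 995, 1446 and 1715 RPM in WT (A). They gave 1826, 2512 and 2147 RPM in *zmp-2 nrpd1-3*, against 2056, 2589 and 2279 RPM in *zmp-2* (B) and 1820, 1773 and 2446 RPM in WT (B). Here *nrpd1-3* lay above WT (A) without overlap (log2 difference 1.28, exact permutation p = 0.2). Of the 81451 windows with at least 10 counts of 24 nt, 1.3% did so and 92.3% lay below WT (A) without overlap. On the same scale *zmp-2 nrpd1-3* overlapped both of its comparison groups at MIR163 (log2 differences of -0.10 and 0.11), while 89.8% of 57939 windows lay below *zmp-2* (B) without overlap and 1.85% above. Windows high in the reference group pass the filter of 10 counts, so these shares of lower windows on the RPM scale are partly set by it. The 21-nt reads of all other miRNA genes stood higher on that scale as well, at 223968 ± 20235 RPM (SD, n = 2) in *nrpd1-3*, against 45120 ± 2729 RPM (SD, n = 3) in WT (A), and at 174911 ± 16150 RPM in *zmp-2 nrpd1-3*, against 52197 ± 2371 RPM in *zmp-2* (B) and 58577 ± 4918 RPM in WT (B) (SD, n = 3 each).

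Against those 21-nt reads of the other 325 miRNA genes, MIR163 was lower without Pol IV. There were 1.37 and 1.56 MIR163 24-nt reads per 100 of them in *nrpd1-3*, against 2.37, 3.08 and 3.69 in WT (A). In *zmp-2 nrpd1-3* there were 1.06, 1.31 and 1.34, against 4.0, 4.72 and 4.53 in *zmp-2* (B) and 2.85, 3.27 and 4.25 in WT (B). The groups did not overlap in any of the 3 comparisons, with log2 differences of -1.03, -1.84 and -1.47 (exact permutation test, p = 0.2, 0.1 and 0.1). Relative to the 21-nt reads of the other miRNA genes, then, the 24-nt reads of MIR163 stood lower in every Pol IV mutant library. This does not speak for the 24-nt reads of those genes.

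The 21-nt reads of MIR163 itself were compared on the RPM scale after the values had been seen. They stood at 1028 and 606 RPM in *nrpd1-3*, against 120 to 238 RPM in WT (A), a log2 difference of 2.32 beside 2.31 for the 21-nt reads of the other miRNA genes. In *zmp-2 nrpd1-3* they stood at 620, 783 and 692 RPM, against 294, 412 and 514 RPM in *zmp-2* (B) and 339, 209 and 335 RPM in WT (B). The log2 differences were 0.81 and 1.27, beside 1.74 and 1.58 for the other miRNA genes. The groups did not overlap in any of these comparisons (exact permutation test, p = 0.2 for *nrpd1-3* and 0.1 for the others).

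**Figure D4:**
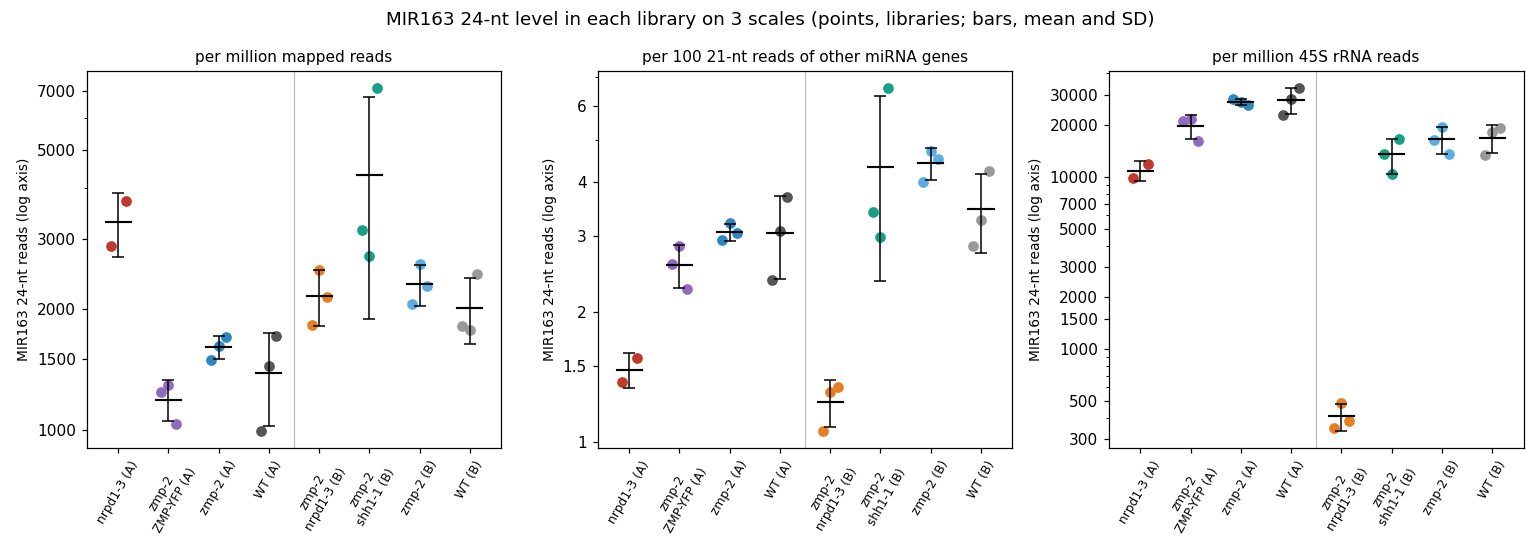
MIR163 24-nt reads as RPM (left), per 100 21-nt reads of the other annotated miRNA genes (middle) and as RPMR (right), on log axes. Points are libraries, and bars give the mean and SD of each group. The *zmp-2 nrpd1-3* libraries lie with the other batch B groups at 1826 to 2512 RPM on the left and far below them at 351 to 490 RPMR on the right.

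The test across all windows used edgeR's quasi-likelihood method on the counts with 45S rRNA reads as library size, and called a window at a fold of at least 2 and a Benjamini-Hochberg FDR of at most 0.05. Of the 4 MIR163 windows only the mature window had the 10 counts needed for the 24-nt test, in all 9 comparisons. In *nrpd1-3* against WT (A) its log2 change was -1.36 ± 0.26 (SE, edgeR FDR 5.24e-05), where 98.7% of the 81451 windows tested were called lower and 0.0945% higher. In *zmp-2 nrpd1-3* it was -5.34 ± 0.467 against *zmp-2* (B) (edgeR FDR 2.52e-10) and -5.37 ± 0.502 against WT (B) (edgeR FDR 8.46e-21), where 98.8% and 98.9% of windows were called lower and 0.0242% and 0.045% higher. MIR163 was called lower in all 3. A call of lower is thus the background among windows with at least 10 counts in these comparisons. Without that filter, which windows high in the reference group pass, 137071 of 275170, 169752 of 300245 and 170300 of 281033 windows were called lower. The median change of the windows tested was -6.66, -8.68 and -8.65, so MIR163 lay 5.30, 3.34 and 3.28 above the median. With the count filter it lay above it under all 6 scalings tried, by 5.30 to 9.37 in *nrpd1-3*, 3.34 to 7.51 in *zmp-2 nrpd1-3* against *zmp-2* (B) and 3.28 to 7.92 against WT (B). Without the filter the medians were -4.08, -5.46 and -5.31, the last beside the filtered MIR163 change of -5.37. MIR163 then lay 2.71 above the median in *nrpd1-3* and only 0.123 above it in *zmp-2 nrpd1-3* against *zmp-2* (B). The margin thus depended on the filter. The direction of its own change did not hold: with mapped reads as library size it was 1.25, -0.095 and 0.10, and with the 21-nt reads of the other miRNA genes -1.05, -1.84 and -1.48.

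The shorter reads of the mature window were called lower on the rRNA scale in both comparisons of *zmp-2 nrpd1-3*, with log2 changes of -4.515 and -4.24 at 21 nt, -5.41 and -5.44 at 22 nt and -5.99 and -5.89 at 23 nt. Of all windows, 85.4% and 89.6% were called lower at 21 nt, 91.9% and 94.3% at 22 nt and 95.5% and 96.6% at 23 nt in these comparisons. The 5′ arm window was called lower too, with changes at 21 nt of -2.57 against *zmp-2* (B) (edgeR FDR 3.07e-09) and -3.52 against WT (B) (edgeR FDR 7.29e-24), and at 22 nt of -3.56 and -4.54. With mapped reads as library size the 21-nt change of the mature window turned to 0.69 and 1.20, the second of which was called. That of the 5′ arm turned as well, to 2.65 and 1.92, and with the 21-nt reads of other miRNA genes to 0.89 and 0.34. In *nrpd1-3* the 22- and 23-nt reads of the mature window were called lower (log2 changes of -1.20 and -1.33, where 92.9% and 97.1% of windows were) and the 21-nt reads were not (-0.29, edgeR FDR 0.433, where 83.5% of windows were called lower). The 22-nt call was lost without WT (A) replicate 1 (-0.93) and the 23-nt call without *nrpd1-3* replicate 1 (-0.98), both falling short of the 2-fold limit. With mapped reads as library size both turned and were called higher (1.46 at 22 nt and 1.31 at 23 nt).

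The second question was whether the loss of ZMP affects MIR163. None of the 24-nt tests found a difference. In batch A the 24-nt counts of 13646, 7186 and 16850 in *zmp-2* and of 6231, 7016 and 8291 in WT came from libraries of different depth, and the levels were 28441, 27093 and 26229 RPMR in *zmp-2*, against 23038, 28405 and 32714 RPMR in WT. In batch B the levels were 16423, 19446 and 13682 RPMR in *zmp-2*, against 13354, 18151 and 19190 RPMR in WT. The groups overlapped in both batches. The log2 change was -0.04 ± 0.158 in batch A (edgeR FDR 0.935) and -0.03 ± 0.287 in batch B (edgeR FDR 0.978), where 6.05% and 6.12% of windows were called lower and 2.48% and 1.82% higher. Both batches together gave -0.04 ± 0.158 (edgeR FDR 0.947, where 6.37% of windows were called lower and 3.36% higher), and permutation within batches gave a mean difference of -0.03 (exact p = 0.845 over 400 arrangements, which allow 0.005). The effect did not differ detectably between batches (interaction 0.01 ± 0.324, edgeR FDR 1, where 0.0266% of windows were called lower and 0.0181% higher).

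The 24-nt share at MIR163 did not separate these genotypes either. It was 77.0%, 80.8% and 83.7% in *zmp-2* (A), against 73.5%, 77.5% and 83.1% in WT (A), and 77.2%, 77.1% and 73.9% in *zmp-2* (B), against 76.5%, 78.4% and 79.0% in WT (B). None of the other sizes of any MIR163 window was called in *zmp-2* with edgeR. Of all windows, 12.1%, 11.5% and 7.27% were called lower at 21, 22 and 23 nt in batch A and 2.5%, 3.23% and 1.83% higher. In batch B 12.2%, 15.2% and 9.02% were called lower and 1.98%, 2.19% and 1.55% higher. The closest was the 21-nt reads of the 5′ arm in batch B, with 35, 23 and 24 reads in *zmp-2*, against 93, 52 and 45 in WT (log2 change -0.95 ± 0.35, edgeR FDR 0.051). Per 100 24-nt reads of the mature window its libraries did not overlap with WT (B) either (log2 difference -0.93, exact permutation p = 0.1). In batch A the same window had a change of 0.41 ± 0.281 (edgeR FDR 0.423), and the ratio overlapped (0.45). The MIR163 share of all 24-nt reads was higher in *zmp-2* by 0.29 in batch A and by 0.31 in batch B on the log2 scale, with overlap in both (exact permutation within batches, p = 0.06, adjusted p = 0.283 over 5 measures).

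In the complemented line the level was 21135, 21803 and 16123 RPMR in *zmp-2 ZMP-YFP*, against 28441, 27093 and 26229 RPMR in *zmp-2* (A) and 23038, 28405 and 32714 RPMR in WT (A). All 3 libraries lay below all libraries of both other groups. The log2 change was -0.47 ± 0.158 against *zmp-2* (A) (edgeR FDR 0.0707, where 4.34% of windows were called lower and 4.01% higher) and -0.51 ± 0.183 against WT (A) (edgeR FDR 0.26, where 0.451% and 0.133% were). Neither passed the test. Against *zmp-2* (A) the FDR was under 0.05 with total counts (change of -0.42, edgeR FDR 0.0184) or mapped reads (-0.43, edgeR FDR 0.0299) as library size and with the replicate block (-0.48, edgeR FDR 0.00203), where only the 2-fold limit was missed. All windows had a median change of -0.44 and -0.36 in these comparisons, so MIR163 lay 0.03 and 0.15 below the median. On the RPM scale the line had 1244, 1294 and 1033 RPM, below the 1493, 1621 and 1703 RPM of *zmp-2* (A) and within the range of WT (A). The 21-, 22- and 24-nt shares at MIR163 overlapped with both groups. The 23-nt share was 2.67%, 2.76% and 2.83%, above the 2.42%, 2.43% and 2.14% of *zmp-2* (A) and within the range of WT (A).

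In *zmp-2 shh1-1* the library-wide loss was partial, and the MIR163 share of all 24-nt reads lay between those of the Pol IV mutants and of the other groups. The 24-nt share of the rest of the library was 53.8% ± 1.49 in *zmp-2 shh1-1*, against 60.6% ± 0.973 in *zmp-2* (B) and 60.4% ± 0.658 in WT (B) (SD, n = 3 each). MIR163 had 13327, 11414 and 25443 24-nt reads, which were 0.721%, 0.67% and 1.7% of all 24-nt reads, against 0.412%, 0.533% and 0.506% in *zmp-2* (B) and 0.356%, 0.335% and 0.486% in WT (B). None of the 3 libraries overlapped with the other groups (log2 differences of 0.96 and 1.27, exact permutation test, p = 0.1 each, adjusted p = 0.18). Replicate 3 stood apart, with 7125 RPM of MIR163 against 3149 and 2710 RPM in the others. It also had the most rRNA reads per mapped read of its group (0.429, against 0.231 and 0.26) and the lowest 21-nt share of other miRNA genes (72.4%, against 79.9% and 81.8%) and the highest 22-nt share (25.8%, against 17.6% and 16.0%). The part of these in its high MIR163 level was not tested.

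On the RPM scale the level in *zmp-2 shh1-1* lay above *zmp-2* (B) by 0.78 and above WT (B) by 0.98 (log2), without overlap, and without replicate 3 by 0.35 and 0.55. On the RPMR scale it was 13620, 10408 and 16605, against 16423, 19446 and 13682 in *zmp-2* (B) and 13354, 18151 and 19190 in WT (B). Replicate 2 lay below both groups and replicates 1 and 3 did not. The edgeR changes were -0.29 ± 0.377 and -0.32 ± 0.414 (FDR 0.663 and 0.58). Of all windows, 28.9% and 39.3% were called lower and 0.298% and 2.12% higher in these comparisons. Relative to the median of all windows MIR163 lay higher by 0.72 and 1.05, and by up to 0.90 and 1.27 under the other 5 scalings.

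The 21-nt reads of the mature window were called lower in *zmp-2 shh1-1* against *zmp-2* (B) (log2 change -1.20 ± 0.432, edgeR FDR 0.0255, where 23.1% of windows were called lower). Leaving out *zmp-2* (B) replicate 2 or 3 or *zmp-2 shh1-1* replicate 2 ended the call (changes of -1.13, -1.13 and -1.28), and so did mapped reads as library size (-0.17). The 21-nt share was 8.81%, 10.4% and 4.72% in *zmp-2 shh1-1*, against 11.1%, 12.3% and 16.7% in *zmp-2* (B), without overlap, and against 14.2%, 9.26% and 10.8% in WT (B), with overlap. Against WT (B) the 5′ arm window was called lower at 21 nt (-1.13 ± 0.423, where 43.6% of windows were) and at 22 nt (-1.51 ± 0.572, where 44.8% were). The 21-nt call did not survive leaving out WT (B) replicate 1 or 2 (-1.08, -1.07) or *zmp-2 shh1-1* replicate 2 or 3 (-1.10, -0.71), nor the 22-nt call WT (B) replicate 2 or 3 (-1.33, -1.32) or *zmp-2 shh1-1* replicate 3 (-1.23). With mapped reads as library size the 21-nt change turned to 0.019 and the 22-nt change was -0.20, neither called.

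Set in order by mean RPM, the groups ran from *zmp-2 shh1-1* (4328 ± 2432 RPM) over *nrpd1-3* (3303 ± 601), *zmp-2* (B) (2308 ± 268), *zmp-2 nrpd1-3* (2161 ± 343), WT (B) (2013 ± 376), *zmp-2* (A) (1606 ± 105) and WT (A) (1385 ± 363) to *zmp-2 ZMP-YFP* (1190 ± 138), with the SD of 3 libraries, or 2 for *nrpd1-3*. Neighbours in this order overlapped except for *nrpd1-3* and *zmp-2* (B), and WT (B) and *zmp-2* (A). The first place rests on replicate 3 of *zmp-2 shh1-1*, whose other libraries had 3149 and 2710 RPM. By mean RPMR the order was another, from WT (A) (28052 ± 4848 RPMR) over *zmp-2* (A) (27254 ± 1115), *zmp-2 ZMP-YFP* (19687 ± 3105), WT (B) (16899 ± 3113), *zmp-2* (B) (16517 ± 2883), *zmp-2 shh1-1* (13545 ± 3099) and *nrpd1-3* (10907 ± 1430) to *zmp-2 nrpd1-3* (409 ± 72.3). There the neighbours that did not overlap were *zmp-2* (A) and *zmp-2 ZMP-YFP*, and *nrpd1-3* and *zmp-2 nrpd1-3*. WT and *zmp-2* of different batches did not overlap on either scale. Levels were therefore tested only within a batch, and these orders across batches are a description.

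MIR163 gave more 24-nt reads in WT (A) than any other annotated miRNA gene, 44.2% of those of all 326. Among the 161 miRNA genes with at least 100 reads in WT (A), the median 24-nt share was 2.76% and the median 21-nt share 62.6%. In 40 of them, MIR163 included, 24 nt made up more than 50% of the reads in every WT (A) library. After MIR163, with 27505 reads of 21 to 24 nt in WT (A), those with the most reads were *MIR5645f* (2669), *MIR5644* (2145), *MIR848* (951), *MIR5635b* (946) and *MIR8180* (880). Their 24-nt shares in WT (A) were between 59.5% and 84.15%, a range that holds that of MIR163 at 78.3%. *MIR5645f* and *MIR5635b* belong to families with several annotated copies, between which reads can have been divided, so their levels are uncertain.

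These genes parted without Pol IV. *MIR5645f* had 2.07 ± 0.239 RPM of 24-nt reads in *nrpd1-3* (SD, n = 2), against 116 ± 13.0 RPM in WT (A) (SD, n = 3). *MIR5644* had 2.25 ± 0.655 RPM, against 111 ± 19.3 RPM. *MIR5635b* had 0.679 ± 0.961 RPM, against 35.8 ± 2.09 RPM. *MIR8180* had 0.272 ± 0.384 RPM, against 33.1 ± 2.496 RPM. All 4 were as low in *zmp-2 nrpd1-3*, with at most 4 reads of 24 nt over its 3 libraries each. Of these 5, only *MIR848* did not lie below its comparison groups on the RPM scale, with 144 ± 48.2 RPM in *nrpd1-3*, against 44.98 ± 13.8 RPM in WT (A), and with 88.4 ± 13.4 RPM in *zmp-2 nrpd1-3*, against 96.2 ± 12.25 RPM in *zmp-2* (B). Of these 5 genes, then, 4 had 2.72 RPM or less of 24-nt reads in every library without Pol IV. Among 24-nt windows with at least 10 counts, 92.3% lay below WT (A) without overlap on this scale in *nrpd1-3*. In *zmp-2 nrpd1-3*, 89.8% lay below *zmp-2* (B). A lower level in 4 of 5 genes, picked by their reads in WT (A), is thus near the background.

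The other mutants divided them further. In *zmp-2 shh1-1*, *MIR5644* had 1.945 ± 0.55 RPM, against 225 ± 42.1 RPM in *zmp-2* (B), and *MIR5635b* had 0.61 ± 0.567 RPM, against 43.9 ± 2.91 RPM. *MIR5645f* kept part of its level, at 19.9 ± 2.85 RPM, against 95.6 ± 8.22 RPM. With mapped reads as library size, edgeR called 19269 of 101166 windows lower at 24 nt in that comparison. *MIR8180* was the one that differed in *zmp-2* without overlap in both batches, at 9.35 ± 1.18 RPM in *zmp-2* (A), against 33.1 ± 2.496 RPM in WT (A), and at 5.70 ± 1.26 RPM in *zmp-2* (B), against 26.2 ± 2.07 RPM in WT (B). In the *zmp-2 ZMP-YFP* line it had 36.9 ± 6.51 RPM (SD, n = 3 in each of these groups). How many of all windows parted without overlap between *zmp-2* and WT was not counted. With mapped reads as library size, edgeR called 7309 of 149021 windows lower at 24 nt in batch A and 5558 of 99044 in batch B. MIR163 and *MIR848* overlapped between *zmp-2* and WT in both batches.

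**Figure D5:**
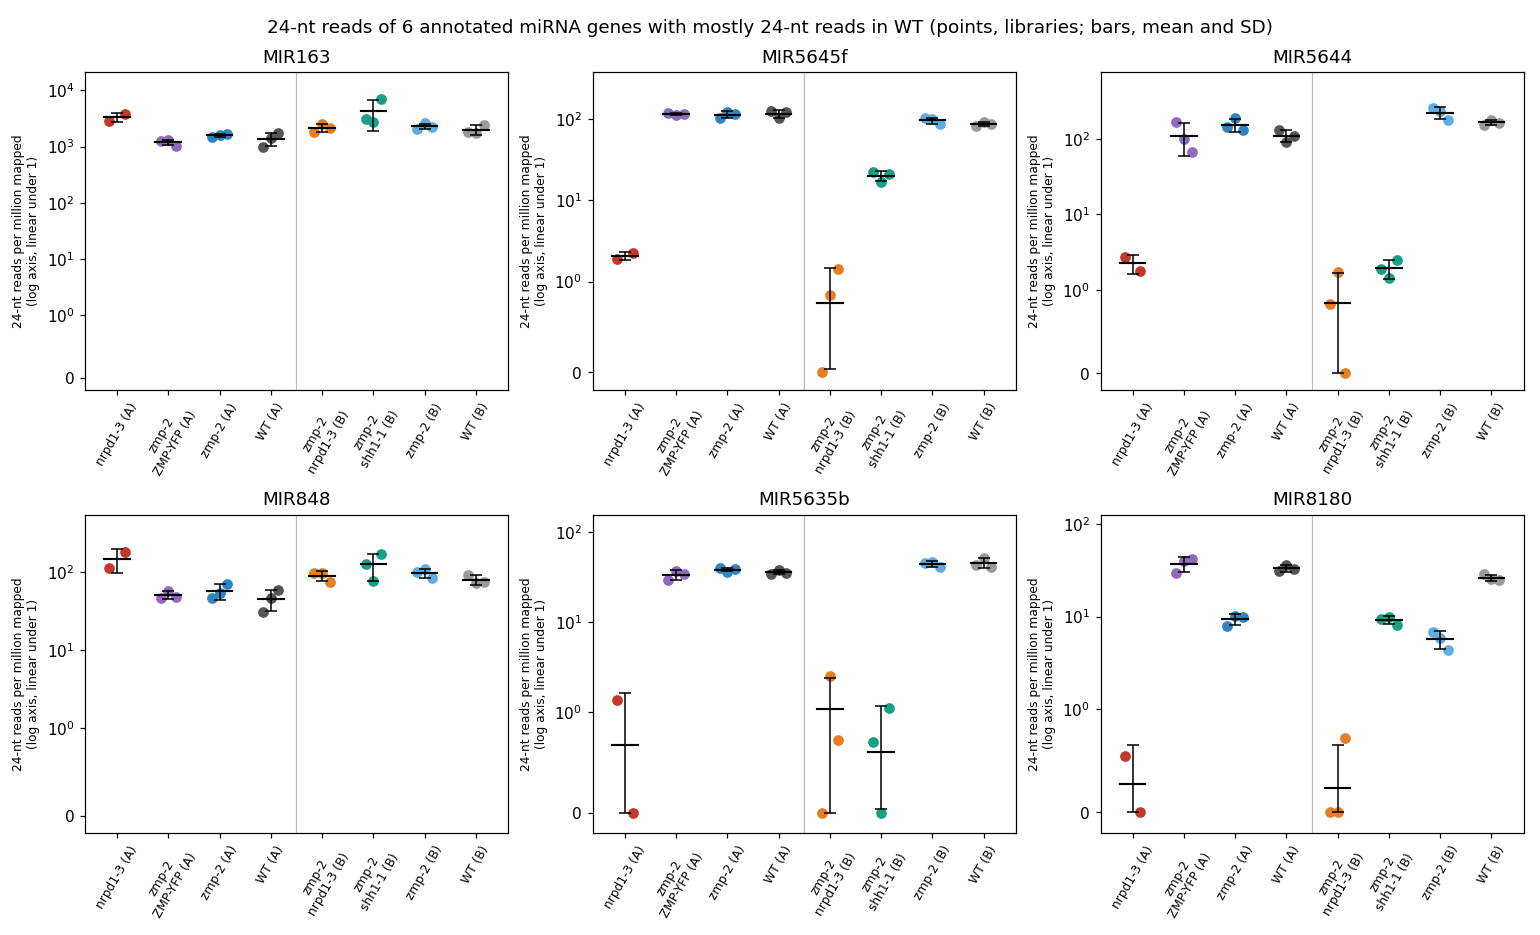
24-nt reads as RPM (y axis, log above 1 and linear below) of MIR163 and the 5 other annotated miRNA genes with the most reads among those with mostly 24-nt reads in WT (A), by group. Points are libraries, and bars give the mean and SD. MIR163 and *MIR848* lie above WT (A) in *nrpd1-3* and overlap with *zmp-2* (B) in *zmp-2 nrpd1-3*, and the 4 other genes are at 2.72 RPM or less in both mutants.

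*MIR848* was also the gene whose reads varied most like those of MIR163 across the 23 libraries. Over the 268 other miRNA genes with at least 100 reads, Pearson's r of log2(RPM + 1) with MIR163 was highest for *MIR848* (0.91), *MIR394b* (0.89) and *MIR319a* (0.89). The points share libraries, batches and the depth to which RPM refers, so the values are a description. The reads of *MIR394b* and *MIR319a* were 90.2% and 88.6% 21 nt in WT (A).

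*MIR822*, *MIR839* and *MIR869* are miRNA genes known to be cut by DCL4 rather than DCL1, and they served as further genes of unusual processing. Their 24-nt shares in WT (A) were 9.72%, 24.4% and 16.9%, and 21 nt was their most frequent size. In *zmp-2 nrpd1-3* the shares were 4.65%, 10.06% and 23.1%, against 6.53%, 11.25% and 13.5% in *zmp-2* (B) and 4.45%, 15.2% and 11.2% in WT (B). In none of these groups was 24 nt the main size of any of them.

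The other miRNA windows give the scale on which MIR163 can be read. In *nrpd1-3* against WT (A), 295 of the 883 windows of other miRNA genes had enough 24-nt reads, of which 161 were called lower and 35 higher, where 98.7% of all windows were called lower and 0.0945% higher. Their median log2 change was -2.13, against -6.66 for all windows and -1.36 for the mature window of MIR163. In *zmp-2 nrpd1-3* against *zmp-2* (B), 206 of 241 were called lower and 1 higher (98.8% and 0.0242% of all windows), with a median of -6.01, against -8.68 for all windows and -5.34 for MIR163. At 21 nt their medians were -0.31 and -3.36 in these comparisons, against -0.29 and -4.515 for the mature window. In *zmp-2* against WT, 9 of 313 were called lower and 8 higher in batch A (6.05% and 2.48% of all windows), and 6 of 259 each way in batch B (6.12% and 1.82% of all windows).

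The 5 target genes gave almost no small RNAs. Over all 23 libraries AT1G66690 had 17 reads of 21 to 24 nt, AT1G66700 had 17, AT1G66720 had 47, AT3G44860 had 26 and AT3G44870 had 11. None of their windows reached the 10 counts needed for a test of any size in any comparison, so a difference between genotypes was not detectable at this depth.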

How the data were processed

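The members and lists were chosen with earlier results of these data known. Per the study's methods, reads matching rRNA, tRNA or small nucleolar RNA (Bowtie 1.1.0, per the submitters' processing notes) were set aside, hits to 45S rRNA were counted, and ShortStack aligned the rest to TAIR10, allowing no mismatch and placing multi-mapping reads by nearby unique ones. The authors deposited whole-number counts per 100-bp window and size. The authors also deposited RPM values (counts per 1000000 mapped reads) and a score, RPMR (counts per 1000000 reads of 45S rRNA). Each was the count times 1 factor per library (largest relative deviation 5.11e-06), from which mapped and rRNA reads were computed.

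Libraries held 0.532 to 8.35 M (M, 1000000) reads of 21 to 24 nt, 1.18 to 9.9 M mapped reads and 0.247 to 7.72 M 45S rRNA reads. Absent windows were taken as 0. These counts limit the precision, and since no molecular identifiers were used, reads may be copies of one molecule.

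Windows with at least 10 counts over the groups compared were tested with edgeR 4.0.16 (R 4.3.3; glmQLFit, glmQLFTest, trended dispersion, 45S rRNA reads as library size), with Benjamini-Hochberg adjustment over all windows, at a fold of at least 2 and an FDR of at most 0.05. The procedure was tested on simulated data. Single values were compared by exact two-sided permutation tests that enumerated all arrangements of the libraries (Python 3.11.15). Levels were tested on log2 of counts plus 0.5, per 1000000 rRNA reads. The function was checked on made-up values, with scipy 1.17.1 beside it. Replicates are labelled as biological, and groups came from the labels. The alternatives were other scalings (mapped reads, total counts, miRNA reads, TMM), DESeq2 1.42.0, no filter, a replicate block, other window sets and leaving out replicates. Those for 21 to 23 nt, the exact tests of the 21-nt share and the 5′ arm ratio, and those of 24- and 21-nt RPM levels were added after seeing the data.

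Gene models and sequences were read from RefSeq TAIR10.1, whose chromosome lengths fit the files, and the hairpin was folded with RNAfold 2.7.2. The genes named were MIR163, its 5 targets, 3 miRNA genes with other processing, the 3 most correlated miRNA genes, and the 5 with the most reads among those with over 50% 24 nt in every WT (A) library.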

Additional observations from a re-analysis of the deposited data

How the results depend on the processing

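The scale set the direction of most changes. All values are log2 changes unless stated. The comparisons, where several values follow, are in the order *nrpd1-3* against WT (A), *zmp-2 nrpd1-3* against *zmp-2* (B) and against WT (B), *zmp-2* against WT in batches A and B, and *zmp-2 shh1-1* against *zmp-2* (B) and against WT (B). For the 24-nt reads of the mature window, all 7 turned under total-count scaling (4.28, 2.91, 3.22, 0.26, 0.30, 1.09 and 1.39) and under TMM (4.76, 2.08, 2.30, 0.025, 0.081, 0.91 and 1.22). With mapped reads they were 1.25, -0.095, 0.10, 0.21, 0.20, 0.91 and 1.104. DESeq2, with its own size factors, gave 5.80, -0.34, -0.42, 0.015, 0.15, 0.86 and 1.24, and the 2 negative values were not called. With miRNA reads as library size only *zmp-2* (A) (0.0076), *zmp-2* (B) (0.35) and *zmp-2 shh1-1* against WT (B) (0.33) turned.

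The 24-nt level by permutation turned per mapped read in *nrpd1-3* (1.28), *zmp-2 nrpd1-3* against WT (B) (0.11), *zmp-2* (A) (0.25), *zmp-2* (B) (0.21), both batches of *zmp-2* (0.23) and *zmp-2 shh1-1* (0.78 and 0.98, or 0.35 and 0.55 without its replicate 3, a setting added after seeing the data). Per miRNA read it turned in *zmp-2* (A) (0.030), *zmp-2* (B) (0.37), both batches (0.20) and *zmp-2 shh1-1* against WT (B) (0.25), and with sizes summed in *zmp-2* (B) (0.0057). The 24-nt share among 23- and 24-nt reads alone turned by percentage points in *nrpd1-3* (0.027) and *zmp-2 nrpd1-3* (1.17 and 0.82).

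For the called windows of other sizes, mapped reads gave 1.46 at 22 nt and 1.31 at 23 nt in *nrpd1-3*. In *zmp-2 nrpd1-3* against *zmp-2* (B) they gave 0.69, -0.15 and -0.76 at 21, 22 and 23 nt of the mature window, and 2.65 and 1.61 at 21 and 22 nt of the 5′ arm. Against WT (B) these were 1.20, 0.056, -0.39, 1.92 and 0.88. In *zmp-2 shh1-1* the mature window gave -0.17 at 21 nt against *zmp-2* (B), and the 5′ arm 0.019 and -0.20 at 21 and 22 nt against WT (B). Of these, the negative values were not called. With miRNA reads the 22-nt value of *nrpd1-3* was -0.86. The 5′ arm of *zmp-2 nrpd1-3* was 0.89 and -0.064 against *zmp-2* (B) and 0.34 and -0.67 against WT (B) at 21 and 22 nt, the mature window -0.36 at 21 nt against WT (B), and the 5′ arm of *zmp-2 shh1-1* -0.67 and -0.91. The cause was not tested, beside the differing rRNA counts given with the levels.

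Leaving out each replicate turned the 24-nt change in *zmp-2*, with edgeR between -0.17 and 0.084 in batch A and -0.18 and 0.086 in batch B, and by level between -0.16 and 0.091 and between -0.19 and 0.098. It moved called changes between -1.35 and -0.93 (22 nt) and -1.79 and -0.98 (23 nt) in *nrpd1-3*, and in *zmp-2 shh1-1* between -1.32 and -1.02 (21 nt, mature window), -1.76 and -0.71 (21 nt, 5′ arm) and -1.995 and -1.23 (22 nt, 5′ arm). In *zmp-2 ZMP-YFP* the 24-nt share ranged from -1.20 to 3.63 points against WT (A) and from -3.13 to 0.18 against *zmp-2* (A), the share of all 24-nt reads from -0.34 to 0.035 against WT (A), the library share from -1.39 to 0.027 points against *zmp-2* (A), and the mature window's share from -0.0083 to 0.00535 against WT (A) and from -0.0036 to 0.0088 points against *zmp-2* (A). The library share ranged from -0.31 to 0.65 points in *zmp-2* (B). The ratio to miRNA reads ranged from -0.14 to 0.18 in *zmp-2* (A), and in *zmp-2 shh1-1* from -0.47 to 0.11 against *zmp-2* (B) and from -0.096 to 0.48 against WT (B). The 21-nt share ranged from -1.46 to 1.56 points in *zmp-2* (A), and in *zmp-2 ZMP-YFP* from -1.89 to 1.14 against WT (A) and from -1.45 to 0.92 against *zmp-2* (A). The 5′ arm ratio ranged from -0.38 to 0.19 in *zmp-2 ZMP-YFP* against *zmp-2* (A) and from -0.64 to 0.66 in *zmp-2 shh1-1* against *zmp-2* (B).

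Same-numbered libraries did not deviate together (correlations across windows between -0.0576 and 0.0692), so the numbers were not taken as pairs. The fit with a replicate block changed no call of the 24-nt reads of MIR163, though its FDR was under 0.05 in *zmp-2 ZMP-YFP* against *zmp-2* (A) (-0.48, edgeR FDR 0.00203), with 24-nt changes of -1.24 in *nrpd1-3*, -5.34 and -5.37 in *zmp-2 nrpd1-3*, and -0.03 in both batches of *zmp-2*. The 5′ arm rests on 20 to 93 reads of 21 nt per library, which limits its precision.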

Other observations

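The 24-nt levels with and without Pol IV were compared over all 40 miRNA genes with more than 50% 24-nt reads in every WT (A) library, after the values of MIR163 were known. In *nrpd1-3*, 34 of them had fewer 24-nt RPM in both libraries than any WT (A) library, and 6 had more than any WT (A) library. Those 6 were MIR163, *MIR848*, *MIR5642b*, *MIR1887*, *MIR5996* and *MIR5642a*. *MIR5642a* and *MIR5642b* are of the same family, so reads can have been divided between them and their levels are uncertain. In *zmp-2 nrpd1-3* against *zmp-2* (B), 33 were lower, 6, MIR163 and *MIR848* among them, overlapped and 1, *MIR5647*, was higher. These counts describe levels among mapped reads. Of the 24-nt windows with at least 10 counts, 92.3% were lower and 1.3% higher without overlap on this scale in *nrpd1-3*. In *zmp-2 nrpd1-3* against *zmp-2* (B) these were 89.8% and 1.85%. Windows high in the reference group pass the filter of 10 counts, and the 40 genes were picked by reads in WT (A). The shares of lower windows and genes are thus partly set by these choices.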
